A study of Mus musculus with 4 samples.

Results

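Acad11, Acot1, Abhd4, Alox5, Ak1 and Abcb1b are 6 mouse genes of lipid, nucleotide and transport metabolism with a p53 peak close to a transcription start site (TSS). They were chosen by measured values of the study, its expression and binding changes: it lists them as raised by irradiation in a p53-dependent way, with a peak of the class gained on irradiation nearby. The expression was measured in stem and progenitor cells sorted from mice with and without p53, irradiated or not, and not in the cell lines of the peaks, and is not analysed here. The presence, nearness and class of those peaks are therefore a description here and were not tested. A peak was assigned to a gene when its centre lay within 50 kb of any TSS of that gene in the GENCODE M1 annotation of the mm9 genome. By this rule 9 of the 7384 listed p53 peaks belonged to the 6 genes.

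The series holds 4 ChIP-Seq libraries, in which DNA fragments bound by a protein are recovered with an antibody and sequenced. Antibody 1C12 against p53 was used on untreated Ba/F3 cells, on Ba/F3 cells 3 h after 3 Gy of radiation, and on untreated HPC7 cells, and an antibody against the histone mark H3K27ac on Ba/F3 cells 3 h after 3 Gy. Ba/F3 is a line of B cell progenitors and HPC7 a line of multipotent hematopoietic progenitors, and per the labels both carried triple-FLAG-tagged murine MYSM1 and were kept in puromycin. There was 1 library per condition, without replicates, and the 1 deposited list gives positions and numbers only, so the depth of the libraries is unknown here. Read intensities at the peaks and marks of peaks shared with HPC7 cells, which the study's own peak table holds, were not used.

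p53 is a transcription factor that is stabilised when DNA is damaged, and it binds DNA as a tetramer. Its consensus site is a pair of 10-base units, each of 3 purines, a C, 2 bases that are A or T, a G and 3 pyrimidines. Besides genes of cell cycle arrest and cell death, p53 is known to act on genes of lipid and nucleotide metabolism. In the search used here a site had both units back to back, the C and the G (the core) of each unit in place, and at most 3 mismatches in 20 positions, within 100 bp of the peak centre.

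The 100 bp of the peak nearest to each gene are shown because the peaks differed in the site they held. Each runs 5′ to 3′ on the plus strand of mm9, and capitals mark the best p53 match with both cores in place. For Alox5 this match had 4 mismatches and so did not pass as a site. For Ak1 the best such match lay outside the 100 bp, and the capitals mark the best match when the cores may hold mismatches.
Acad11, chr9:103966230-103966329: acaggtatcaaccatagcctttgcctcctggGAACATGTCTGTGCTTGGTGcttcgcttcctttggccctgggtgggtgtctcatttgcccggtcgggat
Acot1, chr12:85349040-85349139: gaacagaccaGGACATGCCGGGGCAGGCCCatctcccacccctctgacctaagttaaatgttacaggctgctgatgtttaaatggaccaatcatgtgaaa
Abhd4, chr14:54879296-54879395: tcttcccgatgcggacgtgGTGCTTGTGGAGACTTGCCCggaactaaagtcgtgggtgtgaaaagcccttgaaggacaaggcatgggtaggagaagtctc
Alox5, chr6:116410690-116410789: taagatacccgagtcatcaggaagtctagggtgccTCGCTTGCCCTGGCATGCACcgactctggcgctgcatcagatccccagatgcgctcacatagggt
Ak1, chr2:32485185-32485284: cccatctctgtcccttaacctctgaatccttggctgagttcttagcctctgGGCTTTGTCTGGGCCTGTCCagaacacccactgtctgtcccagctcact
Abcb1b, chr5:8797899-8797998: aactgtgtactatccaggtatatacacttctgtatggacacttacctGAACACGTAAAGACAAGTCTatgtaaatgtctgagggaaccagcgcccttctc

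All 6 genes had a peak within 10 kb, as the choice of genes required, against 15.6% of the 22380 annotated protein-coding genes. For 5 of the 6 the peak lay within 1 kb of a TSS, where 6.13% of protein-coding genes had one. The distance from the nearest peak to a TSS had a median of 283 bp over the 6 genes and ranged from 193 to 1359 bp. Over all peaks the median distance to any annotated TSS was 11285.5 bp. The nearest peaks lay downstream of the TSS at Acad11, Abhd4, Alox5 and Ak1 and upstream at Acot1 and Abcb1b. Just inside and outside the limit of 10 kb stood the Acot1 peak at 1359 bp and a second Ak1 peak at 15887 bp, and around the limit of 50 kb stood Ak1 peaks at 34726 and 50727 bp.

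**Figure D1:**
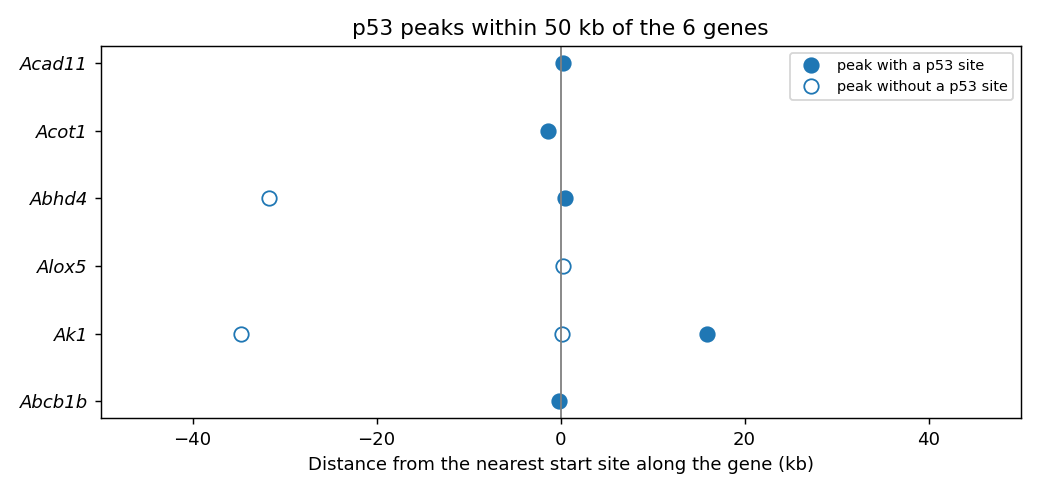
Positions of the 9 peaks within 50 kb of the 6 genes, as the distance in kb from the nearest TSS along the direction of the gene (x axis), with 1 row per gene. Filled circles are peaks with a p53 site of at most 3 mismatches and open circles are peaks without one; each gene has 1 peak beside the TSS, and only Abhd4 and Ak1 have others.

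Of the 6 nearest peaks 4 held a p53 site, at Acad11, Acot1, Abhd4 and Abcb1b, beside 54.5% of all 7384 peaks (95% Wilson interval 53.3 to 55.6, which covers counting error only). In windows 10 kb from the same peaks the share was 1.03%. Peaks within 1 kb of a TSS held a site less often, in 265 of 1376 cases or 19.3%. Of the 3484 protein-coding genes with a peak within 10 kb, 41.1% had a site in such a peak, which is 6.4% of all protein-coding genes. With at most 2 mismatches the Acot1 peak alone held a site, beside 40.8% of all peaks. A list of 6 chosen genes was not tested against these shares.

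Acad11, an enzyme of the acyl-CoA dehydrogenase family that acts in fatty acid oxidation, lies on the plus strand at chr9:103942992-104029976 (ENSMUSG00000090150.1). Its peak was centred 263 bp downstream of the TSS of a coding transcript. It lay in intron 1 of that transcript and of another coding one that starts at 103965707. In the coding transcripts that start near 103942992 it lay in intron 2. The site had 3 mismatches and its middle was 8.5 bp from the peak centre, and 1 of its units matched the consensus without a mismatch. Of 15 sites with at most 3 mismatches within 50 kb of an Acad11 TSS, 1 lay within 100 bp of a listed peak, and a site with 2 mismatches at 8318.5 bp had none.

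Acot1, a cytosolic thioesterase that splits acyl-CoA into free fatty acid and CoA, lies on the plus strand at chr12:85350448-85358621 (ENSMUSG00000072949.4). Its peak was 1359 bp upstream of the TSS and outside the gene. It held the best site among the 6 nearest peaks, with 2 mismatches and its middle 29.5 bp from the centre. This was also the peak whose sequence was repeated in the genome. With BLAST, 810 further copies aligned to its 200 bp window over at least 100 bp at 80% identity or more, with a median identity of 89.4% and a highest identity of 95.1%. A listed peak was centred within 300 bp of the middle of 791 of the 810 copies, or 97.7%, and these were 791 different peaks, 10.7% of the list. Within 100 bp the number was 542. The limit of 300 bp was set after these distances had been seen.

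Most peaks at the copies held a p53 site. The sites were searched within 100 bp of the peak centre, so some may lie outside the copy itself. At 742 of the 791 peaks the best site had at most 3 mismatches, and at 601 it had fewer mismatches than the 2 at Acot1, including 136 without any. In 538 copies the alignment covered the whole Acot1 site, and 532 of these had a peak. In the other 272 it did not, and 259 had a peak, of which 244 held a site. Of 1023 weaker or shorter matches to the window 757 had a peak within 300 bp, but most of these shared a peak with a copy or with each other, and they added 287 peaks to the 791. Of these 791 peaks 19 (2.4%) were within 2 kb of the TSS of a protein-coding gene, as the Acot1 peak was, beside 21.9% of all peaks. Without the peaks at these copies and the Acot1 peak, 49.7% of the remaining 6592 peaks held a site, and when the peaks at weaker or shorter matches were left out as well, 48% of 6305 did. How reads that map to several places were handled is not given in the sources used here, and its part in these peaks was not tested. The windows of the other 8 peaks had no such copy.

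Abhd4, an alpha/beta hydrolase that acts on N-acyl phospholipids, lies on the plus strand at chr14:54878907-54888829 (ENSMUSG00000040997.6). Its nearest peak was 438 bp downstream of the only annotated TSS, in intron 1, and 5566 bp from the TSS of Dad1, a subunit of the oligosaccharyltransferase. The site had 3 mismatches, was 20.5 bp from the centre, and the window held 2 units without a mismatch. This was peak 171 of the list, and the other nearest peaks had numbers from 2364 to 4696. The numbers follow the change in p53 binding on irradiation, with the largest gain first, so they belong to the measure that chose the genes. A second peak, at chr14:54847204-54847303, was 31654 bp upstream and of the class reduced on irradiation. It lay 7057 bp from the start of Trac, the constant segment of the T cell receptor alpha chain, and its best site had 4 mismatches.

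Alox5, the lipoxygenase that starts leukotriene synthesis, lies on the minus strand at chr6:116360095-116411196 (ENSMUSG00000025701.6). Its only peak was 303 bp downstream of a coding TSS, in intron 1. No site passed the limit there. The best had 4 mismatches with both cores in place, and its middle was 4.5 bp from the peak centre, while no unit in the window matched without a mismatch. A site with at most 4 mismatches was found at 61.5% of all peaks and in 2.83% of the windows 10 kb away. None of the 9 sites with at most 3 mismatches within 50 kb of an Alox5 TSS was at a listed peak.

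Ak1, the adenylate kinase that interconverts ATP, ADP and AMP, lies on the plus strand at chr2:32477278-32502325 (ENSMUSG00000026817.8). Its nearest peak was 193 bp downstream of the TSS of a non-coding transcript, in exon 1 of it, and 210 bp from the nearest coding TSS, in introns of the coding transcripts. With both cores required the best match had 7 mismatches, and with the cores free it had 3. A second gained peak, at chr2:32502525-32502624, was 15887 bp downstream and held the best site of all 9 peaks, with 1 mismatch and 5.5 bp from the centre. That peak was in intron 1 of Eng, a co-receptor of the TGF-beta family, and 61 bp from an Eng TSS. Another peak, at chr2:32442503-32442602, was 34726 bp upstream, of the reduced class, and 63 bp from the TSS of St6galnac4, a sialyltransferase. It had a GC content of 74%, 21 CpG in 200 bp and no pair of cores.

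Abcb1b, one of the mouse genes for P-glycoprotein, which exports drugs from cells, lies on the plus strand at chr5:8798147-8866314 (ENSMUSG00000028970.5). Its peak was 199 bp upstream of the TSS, inside exon 1 of the non-coding RNA Gm5106 on the opposite strand, 575 bp from the start of that RNA. The site had 3 mismatches, its middle was 7.5 bp from the centre, and 1 unit matched in full. It was 1 of only 2 such sites within 50 kb of the Abcb1b TSS. With a GC content of 42.5% this window was the lowest of the 6, which ranged to 59.5% at Ak1 around a median of 52.2%, and all peaks had a median of 49%. The number of CpG in 200 bp was 2 at Acot1 and 8 at Alox5, the extremes of the 6.

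**Figure D2:**
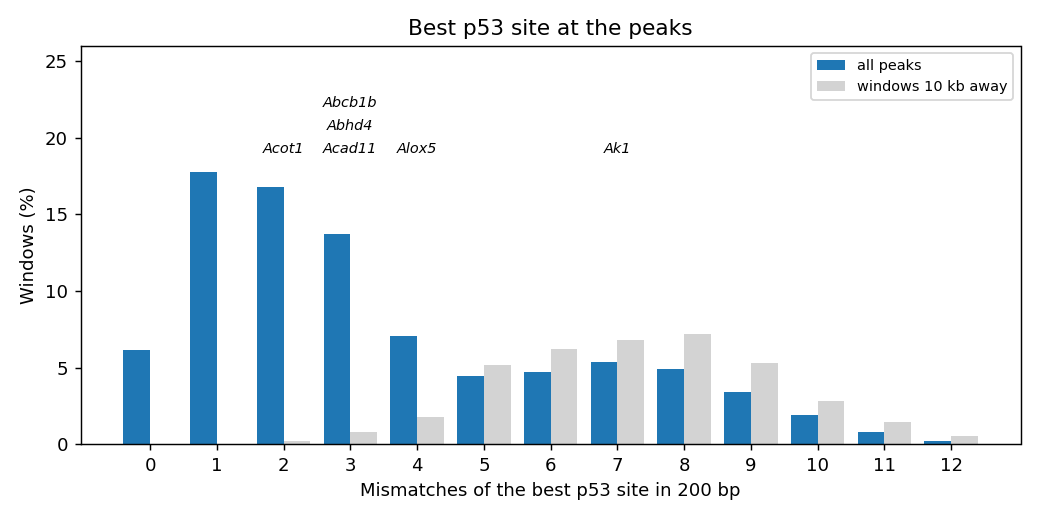
Share of windows in percent (y axis) by the mismatches of the best p53 site with both cores in 200 bp (x axis), for all 7384 peaks (blue) and windows 10 kb away (grey); windows with no pair of cores, 12.7% and 61.5%, are not drawn. Gene names stand above the value of each nearest peak, from 2 mismatches at Acot1 to 7 at Ak1.

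Sites were far more numerous around these genes than peaks. Within 50 kb of a TSS of the 6 genes the genome held 45 sites with at most 3 mismatches, and 5 of them lay within 100 bp of a listed peak. Of the 9 sites with at most 2 mismatches 2 did so, at Acot1 and at the Eng peak near Ak1. Over the genome 4.59% of 111497 sites with at most 3 mismatches were at a peak. The share was 71.5% of the sites without a mismatch, 35.2% with 1, 9% with 2 and 1.57% with 3, and the sites at the Acad11, Abhd4 and Abcb1b peaks were of the last kind. These shares include the repeated sequence of the Acot1 peak.

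**Figure D3:**
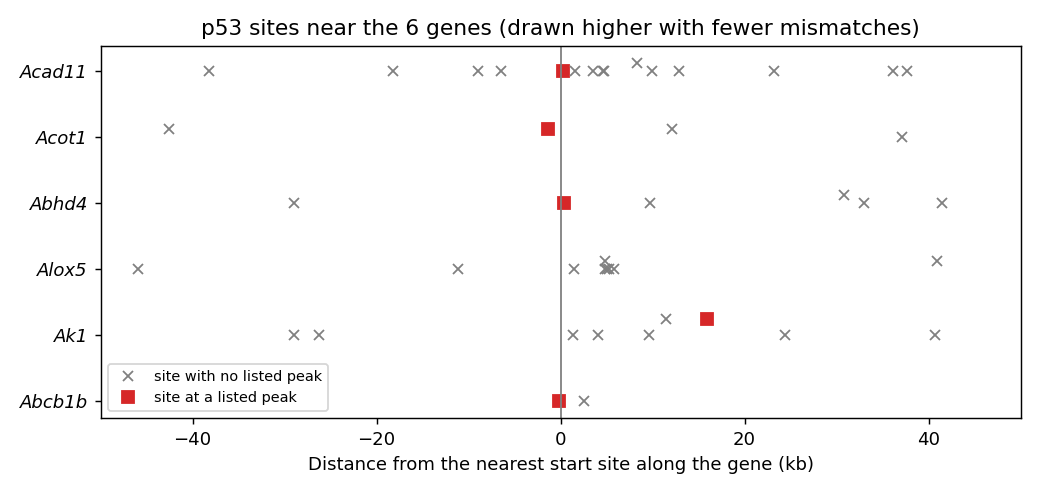
The 45 p53 sites with at most 3 mismatches within 50 kb of the 6 genes, as distance in kb from the nearest TSS along the gene (x axis), drawn higher within a row the fewer mismatches they have. Red squares are the 5 sites within 100 bp of a listed peak and grey crosses the other 40.

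Relatives of the 6 genes were taken from 7 lists. Without the 6 genes these held 98 genes, of which 24 (24.5%) had a peak within 10 kb, beside 15.6% of protein-coding genes, and 56 (57.1%) within 50 kb, beside 40.4%. For 3 of the 56, Acot2, Acot3 and Acot4, the only peak was the Acot1 one, and 53 (54.1%) had another. In 19 of the 24 (79.2%) a peak was of the gained class, beside 79.4% of all protein-coding genes with a peak within 10 kb. In 6 of the 24 (25%) such a peak held a p53 site, beside the 41.1% given above. The counts that follow leave out the 6 genes, and none was tested.

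Among the other acyl-CoA dehydrogenases 3 of 11 genes had a peak within 10 kb. That of Acad8 was gained and 122 bp upstream with 3 mismatches, and Acad10 had a gained peak at 956 bp with 2 mismatches and a reduced one 11 bp upstream with 7. The peak of Acad12 was reduced, 50 bp upstream, and its best match had 8 mismatches. Among acyl-CoA thioesterases 2 of 14 genes had a peak, or 14.3%, close to the 15.6% of all protein-coding genes. They were Them5, with a gained peak at 9749 bp whose site had 1 mismatch, and Acot7, with a reduced peak at 18 bp whose best match had 6. Of the genes of the carnitine shuttle and beta-oxidation 5 of 20 had a peak within 10 kb and none of these peaks held a site. The gained class had 3 of them, at 138 bp for Eci1, in intron 1 of longer Eci2 transcripts and 1125 bp upstream of a TSS of shorter ones, and 4290 bp upstream of the gene for Decr2, auxiliary enzymes for unsaturated fatty acids. The reduced class had the peaks of Cpt2, which moves acyl groups from carnitine to CoA, and Echs1, an enoyl-CoA hydratase, 9 and 10 bp upstream. Just beyond the limit of 10 kb, a further gained peak in intron 1 of Eci2, at 10903 bp, held a site with 1 mismatch.

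Of the other abhydrolase domain genes 6 of 14 had a peak within 10 kb, all 6 of them with a gained one, and 3 had a site. Abhd5, the co-activator of a triglyceride lipase, had a peak 3874 bp downstream with 1 mismatch, Abhd12 one inside the gene, 713 bp upstream of an internal TSS, with 2, and Abhd6 one at 1882 bp with 3. The peaks of Abhd8, Abhd14a and Abhd14b held no site, and the last 2 genes shared 1 peak. Of lipoxygenase and leukotriene genes 3 of 9 had a peak, gained in each, and none held a site. Alox5ap, which presents arachidonic acid to the Alox5 enzyme, had one 174 bp downstream whose best match had 8 mismatches. That of Ltc4s, which makes leukotriene C4, was 1735 bp upstream with 6, and that of Alox12 was at 9685 bp with 6. Of the other adenylate kinases 1 of 6 had a peak, or 16.7%, which was Ak3 at 2815 bp. For ABC transporters of subfamilies B, C and G the number was 4 of 24, also 16.7%. They were Abcb8, Abcc6, Abcc10 and Abcg4, and none held a site. Both shares were close to the 15.6% of all protein-coding genes. Of 20 established p53 targets, listed for scale, 17 had a peak within 10 kb and 10 of these had a site in one.

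**Figure D4:**
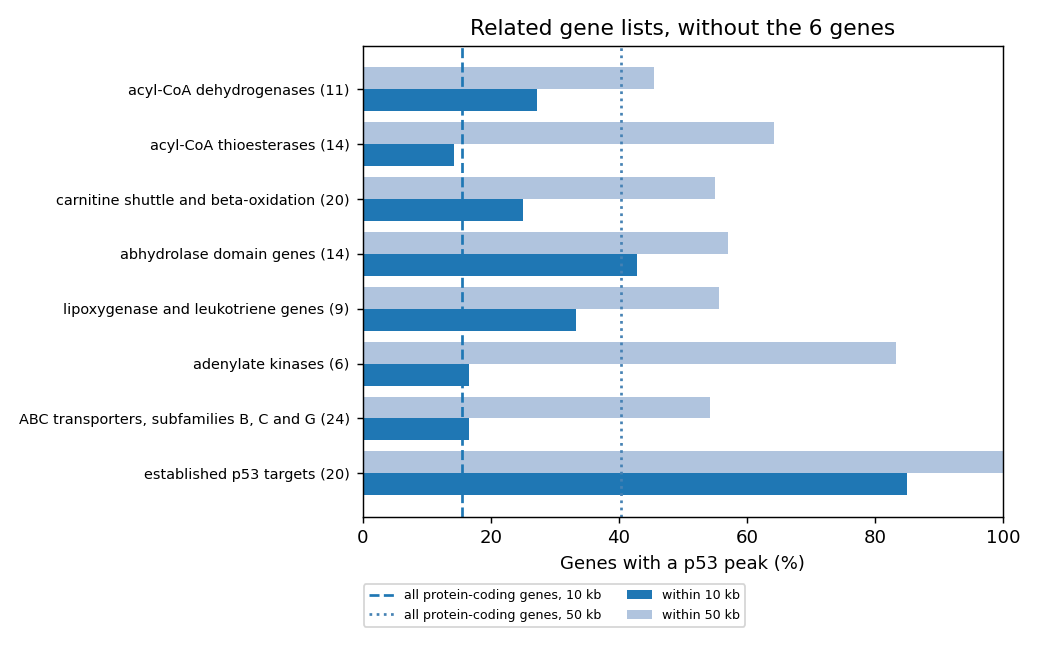
Percent of genes with a p53 peak (x axis) within 10 kb (dark bars) and 50 kb (light bars) for each list, without the 6 genes, with the number of genes in parentheses. The dashed and dotted lines mark all protein-coding genes, 15.6% at 10 kb and 40.4% at 50 kb. At 10 kb the lists of relatives range from 14.3% to 42.9%, and the thioesterases, adenylate kinases and ABC transporters lie close to the dashed line.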

How the data were processed

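Reads were mapped by the authors to mm9 with Bowtie 1.0.0 and peaks called with MACS 1.4.1 against input DNA of the same cells, per the labels' processing notes. The deposited list gives chromosome, start, end and a numbered name for 7384 peaks of 100 bp, and no value for a single library. How peaks of several libraries were merged is not given in the sources used here. The number follows the fold change in p53 binding, as checked on 1955 rows of the study's peak table, and the gained and reduced classes were read from that order.

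Distances run from the peak centre to TSSs of GENCODE M1, and positions count from 1. Sites were searched in 200 bp of the mm9 genome, and the control windows were 10 kb towards the chromosome start. On simulated data all 2000 planted sites with 3 mismatches were found, and 18 of 2000 random windows held a site. Copies in the genome were sought by BLAST 2.17.0 with words of 11 bases and an e-value limit of 1e-10. Python 3.11.15, NumPy 2.4.6, SciPy 1.17.1 and matplotlib 3.10.9 were used. Named genes were the 6 genes, genes with a TSS within 10 kb of their peaks, and genes of the related lists with a peak within 10 kb, and not all of these are reported here. The genes and lists were chosen with earlier results of these data known, and no comparison was tested.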

Additional observations from a re-analysis of the deposited data

How the results depend on the processing

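Of 31 values recomputed under another setting, 20 stayed within 1.5 times the reported count or distance, and 11 went beyond that or, for the share of all peaks, outside its 95% interval. None changed sign. Within that wide limit the number of peaks ran from 6 at 10 kb to 12 at 100 kb, and the Acot1 copies with a peak from 542 to 795. With the 3000 lowest peak numbers only, 3 peaks lay within 50 kb and 3 of the 6 genes had one within 10 kb. With at most 2 mismatches 1 of the 6 nearest peaks held a site, that of Acot1, and 40.8% of all peaks did. Of the 6 nearest peaks 5 held a site with at most 4 mismatches and 5 with the cores free. With a spacer of 0 to 13 bases 4 did, and in the 100 bp of the peak also 4. The share of all peaks was 61.5% with at most 4 mismatches, 72.7% with the spacer, 51.3% in the 100 bp of the peak and 65.4% with the cores free. It was 49.7% without the peaks at copies of the Acot1 sequence and 48% without those at weaker matches too, alternatives added after the data were seen. Of the related genes 56 had a peak within 50 kb. No paired analysis was possible because each condition has 1 library and the list holds no value per library, and no replicate could be left out. Without tag counts neither the height nor the change of a peak has an error here.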
